A study of Mus musculus with 4 samples.

Results

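Histone genes were examined in poly(A)-selected RNA of cultured mouse aortic smooth muscle cells. All rows of the expression table whose symbol begins with Hist1h to Hist4h, H2af, H3f3 or H1f were taken, which gave 81 of 25965 rows. By symbol, 68 of them were replication-dependent genes of the histone clusters (55 Hist1, 10 Hist2, 2 Hist3 and 1 Hist4 gene) and 13 were replacement variants. The 68 were grouped by symbol alone and include testis genes of the clusters. RNA came from 1 group of 4 libraries, called libraries 1 to 4 in accession order (library names AR002, AR004, AR007 and AR016), with no treatment and no control group. The donors were wild-type C57Bl/6 males aged 8 to 14 weeks. Medial cells were released from the aorta with 1 mg/ml collagenase and 1 U/ml elastase, grown in DMEM with 10% serum and passaged 3 to 5 times. The labels do not say whether the libraries came from separate animals or cultures, so all errors and p-values measure only the spread between these libraries.

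Replication-dependent histone genes supply the histones that package newly copied DNA, and their RNA accumulates during S phase. Their mRNAs usually end in a short stem-loop in place of a poly(A) tail, after a cut directed by the stem-loop binding protein SLBP and the U7 particle. Replacement variants are made throughout the cell cycle from ordinary polyadenylated mRNAs, mostly of spliced genes, and enter chromatin outside replication through dedicated chaperones. A library built by poly(A) selection therefore sees mainly the polyadenylated RNA of either class, and the cluster gene values below are not total histone mRNA.

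The stem-loops are shown because the annotated distance between this element and the gene end divided the cluster genes. The histone 3′ stem-loop, a stem of 6 base pairs with a loop of 4 bases, was searched on the transcript strand of the GENCODE M21 transcripts (GRCm38). It was present in 46 of the 68 cluster genes and in 1 replacement variant, H2afx, against 0.155% of 55450 annotated genes. The 16 bases of stem and loop are in capitals, 5′ to 3′ on the transcript strand, with 5 bases on each side in lower case. Hist1h1c, Hist3h2a, Hist1h4i and Hist1h4j were detected and are counted beyond the loop, Hist1h4h was detected and ends near it, Hist1h4d had no reads, and H2afx is the variant.
Hist1h1c: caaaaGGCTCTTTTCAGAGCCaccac
Hist3h2a: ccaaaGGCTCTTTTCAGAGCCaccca
Hist1h4i: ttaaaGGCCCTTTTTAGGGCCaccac
Hist1h4j: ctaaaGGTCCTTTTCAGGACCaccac
Hist1h4h: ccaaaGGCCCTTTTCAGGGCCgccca
Hist1h4d: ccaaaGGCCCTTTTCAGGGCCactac
H2afx: acaaaGGCCCTTTTAAGGGCCaccac
These sites lie in the annotated 3′ untranslated regions at chr13:23739507-23739532 (plus strand) for Hist1h1c, chr11:58955167-58955192 (plus) for Hist3h2a, chr13:22040961-22040986 (minus) for Hist1h4i, chr13:21735432-21735457 (plus) for Hist1h4j, chr13:23531453-23531478 (plus) for Hist1h4h, chr13:23581945-23581970 (plus) for Hist1h4d and chr9:44335235-44335260 (plus) for H2afx. The capitals are identical in Hist1h1c and Hist3h2a, and in Hist1h4h and Hist1h4d.

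The deposited value of a gene is the log2 of its reads times a constant of the library, without division by gene length, and a gene was called detected where this value was at least 0 in 4 of 4 libraries (30, 29, 22 and 30 reads in libraries 1 to 4). Of the replacement variants, 10 of 13 were detected. Of the cluster genes, 10 of 68 were detected (14.7%), and 47.4% of all rows of the table were. For 16 cluster genes there was no read in any library, and 24 cluster genes had at most 5 reads in every library.

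Cluster genes together took 0.0194%, 0.0139%, 0.00970% and 0.0107% of the reads on genes in libraries 1 to 4 (mean 0.0134% ± 0.0044, SD, n = 4). The exact (Clopper-Pearson) 95% intervals of these shares ran from 0.0190 to 0.0198%, 0.0136 to 0.0142%, 0.00940 to 0.0100% and 0.0104 to 0.0110%. Replacement variants took 0.0782%, 0.0964%, 0.0898% and 0.0869% (mean 0.0878% ± 0.0076), with intervals of 0.0774 to 0.0789%, 0.0956 to 0.0972%, 0.0889 to 0.0908% and 0.0862 to 0.0877%. These intervals, and every limit from a count of 0 below, cover counting error only, since the reads carry no molecular identifiers and PCR copies of a molecule are counted again. The share of the variants was above that of the cluster genes in each of the 4 libraries, although the variants are fewer.

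To compare genes, levels were divided by exon length and are given as log2 of scaled reads per kb of exon ("level per kb"). The median level per kb over the 13 replacement variants was 5.09, 5.61, 5.03 and 5.02 in libraries 1 to 4 (mean 5.19 ± 0.29). Over the 68 cluster genes it was -1.86, -2.31, -3.27 and -3.60 (mean -2.76 ± 0.81), with genes without reads at the deposited floor of 0.9 read. The difference of the medians, on the log2 per kb scale, was 7.95 ± 0.72. Without the testis genes the median of the cluster genes was -2.40 ± 0.66 and the difference was 7.58 ± 0.59. The median over the 22595 rows with an exon length was -0.92 ± 0.37 on the same scale, so the cluster genes lay below it and the variants above it. Over detected genes only, the median was 2.97 ± 0.29 for all rows, 2.47 ± 0.68 for the cluster genes and 5.59 ± 0.27 for the variants. The median of the 10 detected cluster genes was 3.00 against 3.07 for all detected genes in library 2, and 1.65 against 2.84 in library 4. These 10 passed a threshold on the same values, and their mean levels per kb ran from -1.65 (Hist1h1d) to 6.74 (Hist1h1c).

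**Figure D1:**
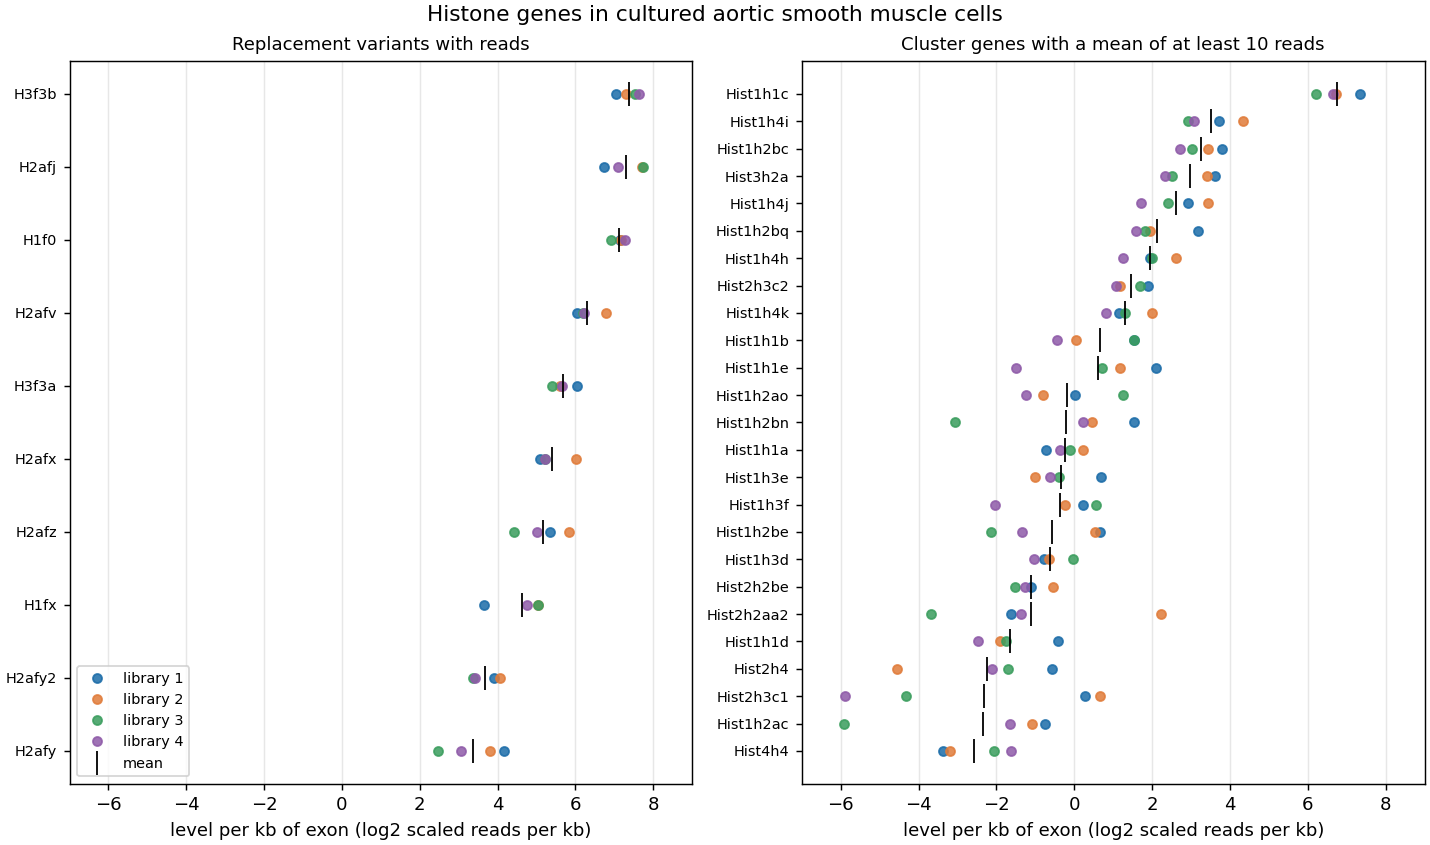
Level per kb (x axis, log2 of scaled reads per kb of exon) in each of the 4 libraries (coloured points) and their mean (black bar), for the 10 replacement variants with reads (left) and the 25 cluster genes that were detected or had a mean of at least 10 reads (right). Hist1h1c, with a mean of 6.74, lies within the range of the variants (3.37 to 7.38), and the other cluster genes shown lie at or below 3.52, with wider spreads among those of few reads.

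Among the H3 variants, H3f3a and H3f3b encode the same replacement histone, H3.3, from different genes. H3f3b (chr11:116021912-116027962, minus strand) had 11486, 13457, 12201 and 17413 reads in libraries 1 to 4, the most of any member in each library. H3f3a (chr1:180800832-180813943, minus strand) had 6755, 4954, 3254 and 5214 reads. H3f3b was above H3f3a in all 4 libraries. The level per kb was 7.38 ± 0.26 for H3f3b and 5.68 ± 0.27 for H3f3a, a difference of 1.70 ± 0.50 on the log2 scale, or 3.25-fold (exact two-sided sign-flip permutation p = 0.13, adjusted over 6 contrasts 0.150). With 4 libraries this is the smallest p the test can give (2 of 16 sign arrangements), so no contrast between paralogues could pass 0.05. The transcripts of the pair shared no stretch of 50 bases with each other, while 27.1% of the stretches of H3f3a and 6.86% of those of H3f3b occurred in other genes. If reads that match several genes were discarded, H3f3a could be lowered more than H3f3b, and the rule used is not known.

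H2A variants differ in where they sit in chromatin. H2afz and H2afv encode the H2A.Z histones found at promoters, H2afx encodes H2A.X, which is phosphorylated at DNA breaks, H2afy and H2afy2 encode the macroH2A histones with a large extra domain, and H2afj encodes H2A.J.

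H2afj (chr6:136808248-136810074) had 5667, 10991, 8532 and 7306 reads. On the deposited log2 scale, which allows for depth, its values were 7.61, 8.57, 8.60 and 7.96, close together in libraries 2 and 3 and lowest in library 1. Its level per kb was 7.31 ± 0.49, the highest of the H2A genes. H2afv had 3116, 5186, 2630 and 3570 reads, at a level per kb of 6.31 ± 0.33. H2afz had 2111, 2907, 839 and 1688 reads, at 5.15 ± 0.59 per kb. Of the stretches of 50 bases of H2afz 35.4% occurred in other genes, none of them in H2afv. If reads that match several genes were discarded, the values of H2afz would be too low, and the rule used is not known. H2afz lay below its paralogue in every library, by 0.68, 0.96, 1.77 and 1.20 on the log2 per kb scale (mean difference, H2afz minus H2afv, -1.15 ± 0.46, exact permutation p = 0.13, adjusted 0.150). The difference was -1.03 with no division by length and -0.42 with the longest transcript of each gene (exact permutation p = 0.25), and it was 1.79, in the other direction, only when reads were divided by the genomic span, which includes introns.

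H2afx, whose gene has a stem-loop and 816 counted bases beyond it, had 1375, 2570, 1135 and 1515 reads. Its level per kb was 5.39 ± 0.42, and library 2 stood above the other 3 libraries. H2afx was 1.93 ± 0.40 below H2afj on the log2 per kb scale (exact permutation p = 0.13, adjusted 0.150), lower in 4 of 4 libraries.

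Of the macroH2A genes, H2afy had 3558, 2772, 821 and 1655 reads and H2afy2 had 952, 1042, 491 and 684. Their levels per kb were 3.37 ± 0.77 and 3.69 ± 0.35 and overlapped. The difference, H2afy minus H2afy2, was 0.26, -0.23, -0.90 and -0.37 in libraries 1 to 4 (mean -0.31 ± 0.48, exact permutation p = 0.375, adjusted 0.375), with the sign of the mean in 3 of 4 libraries. Its direction depended on the length used: it was 0.45 with the longest transcript, 0.87 with the genomic span and 1.33 with no division by length. H2afy2 overlaps Aifm2 on the opposite strand, and whether the authors counted by strand is not stated.

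Linker histones bind the DNA between nucleosomes. H1f0, the H1.0 variant known from differentiated and resting cells, had 8514, 8493, 5465 and 9366 reads. On the deposited scale its SD between libraries was 0.15, the lowest among the 20 detected histone genes. With median-ratio size factors, another scaling used below, it was 0.24, above that of Hist1h1c (0.22), so this rank depends on the scaling. H1fx, which encodes H1.X, had 447, 1163, 873 and 961 reads, with library 1 below the others. The levels per kb were 7.13 ± 0.15 for H1f0 and 4.62 ± 0.66 for H1fx, a difference of 2.51 ± 0.71 that had the same sign in 4 of 4 libraries (exact permutation p = 0.13, adjusted 0.150). H1fx overlaps Gm5577 on the opposite strand.

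The remaining variants, the germ cell linker histones H1fnt and H1foo and the short H2A variant H2afb1, had no reads in any of the 4 libraries. A count of 0 is compatible with as many as 3 reads per library. Of 6 germ line marker genes, 0 were detected in 4 of 4 libraries, against 47.4% of all rows. Sycp3 among them had 22, 17, 51 and 31 reads and passed the threshold in libraries 3 and 4.

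Hist1h1c, which encodes the linker histone H1.2 (chr13:23738807-23740366, plus strand), was the cluster gene with the most reads in every library, with 7400, 4791, 2559 and 4614. It held 67.8%, 62.0%, 65.4% and 75.9% of all cluster gene reads (mean 67.8% ± 5.9; exact 95% intervals 66.9 to 68.7%, 60.9 to 63.0%, 63.9 to 66.9% and 74.8 to 76.9%). Its level per kb of 6.74 ± 0.47 stood at percentile 92.2 of the detected genes. Hist1h1e, which encodes H1.4, had 242, 125, 69 and 20 reads and was not detected, since library 4 fell below the threshold. The difference, Hist1h1c minus Hist1h1e, was 5.24, 5.57, 5.52 and 8.16 on the log2 per kb scale (mean 6.12 ± 1.36, exact permutation p = 0.13, adjusted 0.150). Without library 4 it was 5.44, and with exons restricted to the deposited span it was 4.75, because the GENCODE model of Hist1h1e is longer than the region that was counted.

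The other linker histone detected was Hist1h1d, which encodes H1.3, with 161, 57, 48 and 39 reads. Its GENCODE model is 7425 bases long, and its level per kb was -1.65 ± 0.87, or -0.69 with exons restricted to the deposited span. Hist1h1b had 63, 22, 47 and 16 reads and Hist1h1a had 13, 25, 15 and 17. Neither was detected.

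Hist3h2a (chr11:58954685-58956674, plus strand) was the only H2A cluster gene detected, with 763, 654, 270 and 316 reads and a level per kb of 2.96 ± 0.64. It overlaps Trim17 on the same strand, so its reads may include those of Trim17. Of the 19 H2A cluster genes, 5 had no reads.

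Among 18 H2B cluster genes, 3 were detected. Hist1h2bc had 468, 361, 206 and 225 reads (level per kb 3.24 ± 0.47). Hist1h2bq had 533, 223, 155 and 179 reads (2.13 ± 0.72 per kb). Hist1h2be had 204, 187, 22 and 51 reads (-0.58 ± 1.40 per kb), with libraries 1 and 2 above libraries 3 and 4. All 3 have spliced models in the annotation.

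Among 13 H4 cluster genes, 3 were detected. Hist1h4i had 280, 427, 122 and 179 reads and a level per kb of 3.52 ± 0.65. Hist1h4j had 169, 244, 90 and 74 reads (2.62 ± 0.74 per kb). Hist1h4h had 53, 83, 41 and 33 reads (1.95 ± 0.55 per kb). All 3 were highest in library 2.

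Of 12 H3 cluster genes, Hist2h3c2 alone was detected, with 110, 67, 72 and 63 reads and a level per kb of 1.46 ± 0.39. The cluster genes encode H3.1 and H3.2, the H3 proteins of replication.

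A further 15 cluster genes had a mean of at least 10 reads without being detected. They included Hist1h4k (20, 36, 17 and 16 reads), Hist1h3f (43, 31, 41 and 9), Hist1h3d (21, 23, 27 and 18), Hist1h3e (39, 12, 14 and 16), Hist2h2be (35, 52, 20 and 32), Hist1h2ac (43, 34, 0 and 23) and Hist4h4 (8, 9, 15 and 27). Hist2h3c1 (64, 84, 2 and 0 reads) and Hist2h2aa2 (5, 71, 0 and 6) had most of their reads in 1 or both of libraries 1 and 2. Hist2h4 had 32, 2, 11 and 11 reads, Hist1h2bn 32, 15, 1 and 13 and Hist1h2ao 14, 8, 25 and 6. The other 43 cluster genes had at most 20 reads in any library, led by Hist2h2bb (3, 19, 0 and 0), Hist1h4m (19, 2, 0 and 1) and Hist2h2aa1 (5, 2, 6 and 7). Summed over the clusters, the 10 genes with the most reads held 93.5% ± 1.4 of the reads.

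The 68 cluster genes were then divided by their annotated 3′ end. Counting more than 100 exonic bases beyond the stem-loop, inside the deposited span, gave 18 genes, of which 7 were detected. In 28 genes the counted region ended within 100 bases of the loop, and 1 of them, Hist1h4h, was detected. A further 16 genes had models that stop at or near the stop codon, without a stem-loop in the annotated sequence, and 0 of them were detected. The remaining 6 had another 3′ end without a stem-loop match, and 2 of them were detected, Hist1h2bc and Hist1h2bq.

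The 18 genes counted beyond the loop held 86.3% ± 2.4 of the cluster reads, mostly from Hist1h1c. Their median level per kb was -1.04 ± 0.74, against -3.73 ± 0.18 for the genes that end near it, -2.66 ± 0.49 for those that stop at the coding end and -0.65 ± 0.34 for those with another end. Of the 28 genes that end near the loop, 11 had no reads and 15 had at most 5 reads in every library. Their median and its SD therefore lie near the floor of 0.9 read and are not a measured level. Of the 16 that stop at the coding end, 4 had no reads. A longer counted region also collects more reads: the median exon length was 1255 bases beyond the loop and 522 bases near it. With cutoffs of 50 and 200 bases in place of 100, 7 of 21 and 6 of 12 genes counted beyond the loop were detected. The counted region ran 839 bases beyond the loop in Hist1h1c, 1487 in Hist3h2a, 385 in Hist1h4j and 150 in Hist1h4i. In Hist1h4h it ran 46 bases.

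**Figure D2:**
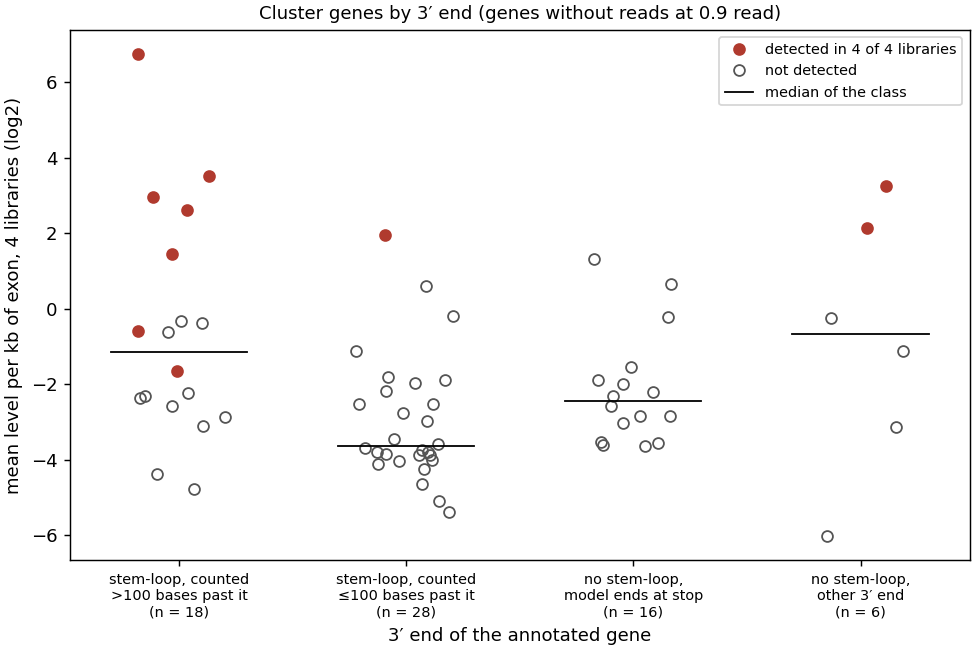
Mean level per kb of each of the 68 cluster genes (y axis, log2 of scaled reads per kb of exon, mean of 4 libraries), by the annotated 3′ end (x axis). Filled points are the detected genes and bars are medians of the plotted means, at -1.13 for the 18 genes counted more than 100 bases beyond the stem-loop, -3.63 for the 28 that end near it, -2.43 for the 16 that stop at the coding end and -0.68 for the 6 with another end. Genes without reads are placed at 0.9 read, and the median of the 28 lies near this floor.

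A polyadenylation signal was searched for as AATAAA downstream of the loop on the transcript strand. It was present in 12 of the 18 genes counted beyond the loop, of which 5 were detected, and absent in 6, of which 2 were detected. In 5 of the 28 genes that end near the loop (Hist1h1e, Hist1h2bh, Hist1h4a, Hist1h4c and Hist1h4d) the GENCODE model ran on for more than 100 bases that the deposited span did not include. None of these 5 was detected, and reads beyond the deposited end of these genes would not have been counted. Annotated 3′ ends were themselves drawn from RNA evidence, so the division describes the annotation together with these libraries.

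Near-identical copies limit single-gene values in the clusters. Of all stretches of 50 bases in their transcripts, a median of 29.8% also occurred in another gene among the 10 detected cluster genes and 58.7% among the 58 not detected, against 8.33% among the 10 detected variants. Hist1h2bq shared 97.3% of them with Hist1h2br, which had 0, 0, 1 and 0 reads. Hist1h2ao shared 93.5% with Hist1h2ap, which had no reads, and Hist2h2aa1 shared 89.2% with Hist2h2aa2. The authors' rule for reads that match several copies is not known from the sources used here. The values of these genes are therefore uncertain, while sums over a histone type depend less on it. If reads that match several genes were discarded, the sums would be too low as well.

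Of the 68 cluster genes, 8 overlapped another gene and together held 7.79% ± 2.18 of the cluster reads, almost all of them in Hist3h2a, Hist2h3c1 and Hist2h2aa2. H2A and H2B cluster genes are often arranged head to head. In 12 such pairs the starts lay within 400 bases of each other. Of these, 9 had reads, and in 8 the H2B gene had more reads than its H2A partner, summed over libraries and not divided by length. Some of these rest on very few reads: Hist1h2br had 1 and Hist1h2ap 0, and Hist1h2bj had 2 and Hist1h2ag 0. In the pair with the most reads, Hist1h2bc had 468, 361, 206 and 225 reads and Hist1h2ac, 251 bases away, had 43, 34, 0 and 23. Hist1h2bq (533, 223, 155 and 179) and Hist1h2ao (14, 8, 25 and 6) lay 266 bases apart, and Hist2h2be (35, 52, 20 and 32) and Hist2h2ac (3, 8, 8 and 0) lay 241 bases apart. In these pairs both genes start in the same short interval and their reads differed in each library. Their exon lengths differ too: 2015 bases for Hist1h2bq and 480 for Hist1h2ao, and 2620 for Hist2h2be and 520 for Hist2h2ac. Hist1h2bc, at 1156 bases, is shorter than Hist1h2ac, at 2482. Per kb, Hist2h2be lay below Hist2h2ac in library 3 (-1.53 and -0.52) and above it in libraries 1, 2 and 4.

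Promoters were taken from RefSeq (GRCm38.p6, 250 bases before to 50 after each gene start) and were available for 74 of the 81 genes. The motif TATAAA, searched on both strands, was found in 35 of 62 cluster promoters (56.5%), in 1 of 12 variant promoters and in 15.7% of all 27025 promoters. CCAAT was found in 53 of 62 cluster promoters (85.5%) against 41.1% of all promoters. It was present in all cluster promoters of H1 (6), H2A (18), H2B (16) and H3 (10), and in 3 of 12 of H4. The octamer ATTTGCAT was found in 7 of 18 H2A and 7 of 16 H2B cluster promoters, in none of the H1, H3 and H4 cluster promoters, and in 1.97% of all promoters. The 12 head-to-head pairs of H2A and H2B genes lie 168 to 306 bases apart, so the windows of a pair largely overlap. A match of any of these motifs can then be counted for both genes, and such promoters are not separate observations. Among the 9 detected cluster genes with a promoter, 3 held TATAAA and 6 held CCAAT, against 32 and 47 of the 53 not detected. All cluster promoters without CCAAT were those of H4 genes. The CCAAT counts therefore follow the histone types in each group, and a link of the motif to detection was not tested. A match describes the letters only and does not show binding.

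The share of each histone type that came from replacement variants was computed on summed scaled reads per kb. For H3, H3f3a and H3f3b made up 95.8%, 97.1%, 97.2% and 98.2% of the signal in libraries 1 to 4 (mean 97.1% ± 1.0), with 73.9% ± 7.0 from H3f3b. For H2A the variants made up 94.3%, 96.3%, 97.4% and 97.3% (96.3% ± 1.4), led by H2afj with 45.0% ± 9.0 and H2afv with 22.2%. For H1 they made up 47.5%, 61.3%, 65.7% and 63.9% (59.6% ± 8.3). H1f0 gave 49.9% ± 4.6 and H1fx 9.69% ± 4.3 of the H1 signal, and Hist1h1c gave 38.5% ± 7.9. Library 1, where Hist1h1c was highest, had the lowest share of variants in all 3 types. H2B and H4 have no member among the replacement variants here: Hist1h2bc gave 52.5% of the summed H2B signal per kb, and Hist1h4i 44.7% of that of H4.

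**Figure D3:**
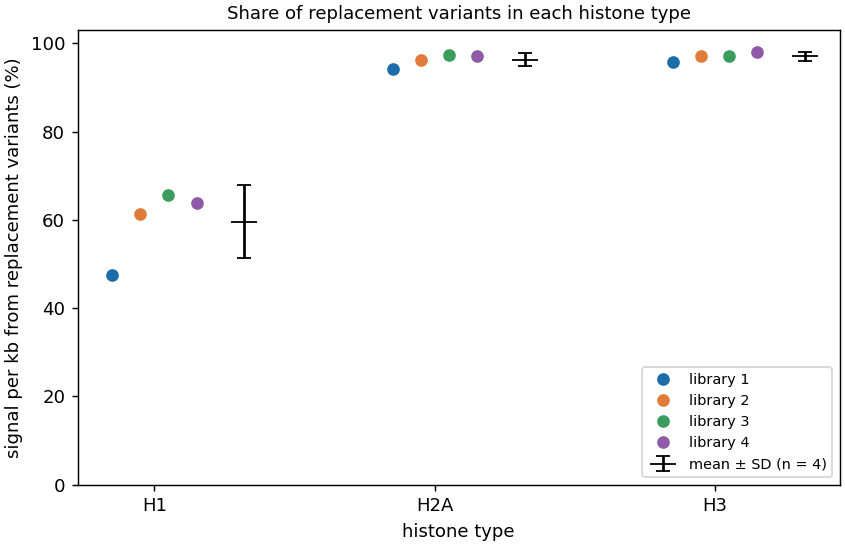
Share of the summed signal per kb of each histone type that came from replacement variants (y axis, percent), for each of the 4 libraries (points) with the mean and SD (n = 4). The shares for H2A and H3 lie between 94.3 and 98.2% and those for H1 between 47.5 and 65.7%.

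Between libraries, 10 of the 20 detected histone genes (50%) had an SD above 0.5 on the deposited log2 scale, against 40.5% of all detected genes. They were 7 of the 10 cluster genes (Hist3h2a, Hist1h2bq, Hist1h4i, Hist1h4j, Hist1h2be, Hist1h1d and Hist1h4h) and 3 of the 10 variants (H2afy, H2afz and H1fx). Hist1h2be alone had an SD above 1.

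On the deposited scale both libraries 1 and 2 were above both libraries 3 and 4 in 7 of the 10 detected cluster genes, in 3 of the 10 detected variants and in 51.8% of all detected genes. With median-ratio size factors, which shifted libraries 1 to 4 by -0.34, -0.11, 0.28 and 0.10 on the log2 scale, the counts were 4 of 10, 1 of 10 and 27.0%. The libraries also differed in genes of the cell cycle. Of 22 S phase genes, which include the MCM helicase subunits and ribonucleotide reductase, 21 were detected. By the mean on the deposited log2 scale, without division by length, the highest were Rrm1 (7.13; 5996, 8748, 1359 and 2929 reads), Mcm6 (7.03) and E2f1 (6.81). All 21 had this order on the deposited scale, and 18 had it with size factors. The list's median level per kb was 3.83, 4.16, 2.22 and 2.81 in libraries 1 to 4, and that of 10 mitosis genes was 3.26, 3.93, 1.69 and 2.17.

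The summed cluster signal, without division by length, deviated from its mean over libraries by 0.61, 0.12, -0.47 and -0.25 on the deposited log2 scale, and the summed S phase signal by 0.41, 1.00, -0.91 and -0.51. The summed variant signal deviated by -0.14, 0.15, -0.02 and 0.01. H2afz deviated by 0.20, 0.67, -0.73 and -0.14 and H2afj by -0.58, 0.39, 0.42 and -0.23. The S phase sum was highest in library 2 and the cluster sum in library 1, and both were lowest in library 3. Without Hist1h1c the cluster sum deviated by 0.63, 0.38, -0.35 and -0.65 and was lowest in library 4. With size factors the deviations of the variant sum were -0.46, 0.05, 0.28 and 0.13, so the direction for library 1 against library 3 was kept, while that of library 3 from the mean changed sign. With 4 libraries no correlation was computed, and the part of the cell cycle in these differences was not tested. In bulk RNA, fewer cells of a kind and less RNA per cell cannot be told apart.

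**Figure D4:**
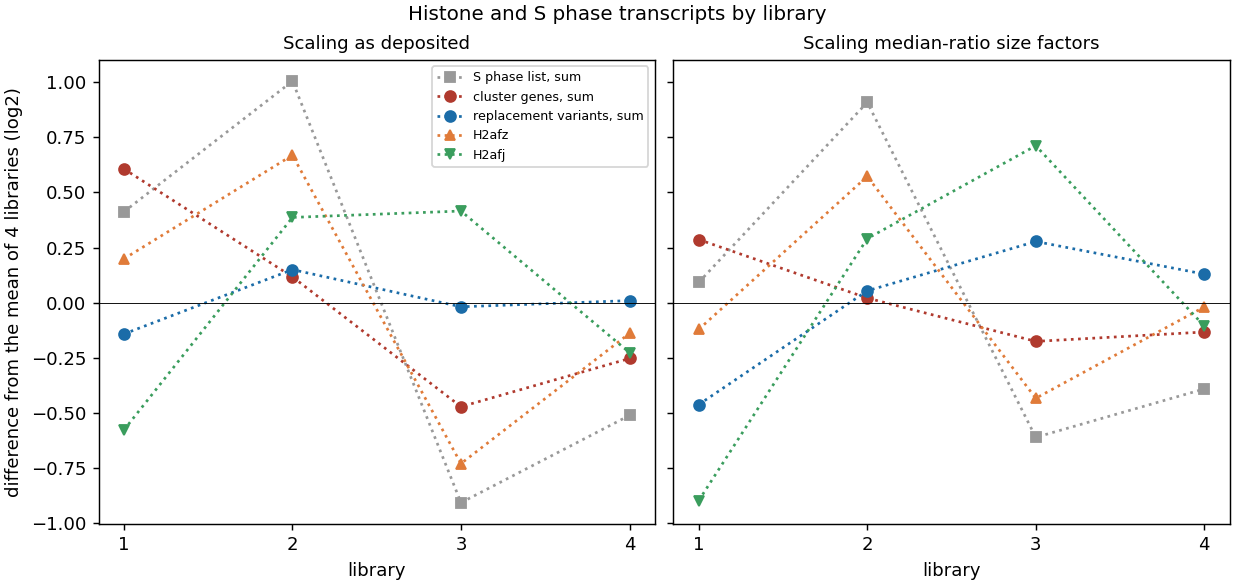
Deviation of each library from the mean of 4 libraries (y axis, log2), for the summed signal of the cluster genes, the replacement variants and the S phase list and for H2afz and H2afj, with the deposited scaling (left) and with median-ratio size factors (right). Dotted lines join the points of 1 gene or list and imply no order of libraries: the S phase sum reaches 1.00 in library 2 and -0.91 in library 3 on the deposited scale, while the variant sum stays between -0.14 and 0.15.

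Genes that act on histone mRNA and histone proteins were measured alongside. Of 18 genes for 3′ processing, turnover and transcription of histone mRNA, 17 were detected (median level per kb 3.41 ± 0.41). Slbp, which encodes the protein that binds the stem-loops printed above, had 2275, 3183, 868 and 1600 reads (3.43 ± 0.64 per kb). Npat, an activator of the histone clusters, had 299, 289, 215 and 162 (0.47 ± 0.43 per kb). The highest levels per kb were those of Ncbp2 and Srrt, parts of the cap-binding machinery (6.09 ± 0.18 and 5.65 ± 0.39), of Sympk, a scaffold of the cleavage complex (5.45 ± 0.20), and of Ncbp1 (4.26 ± 0.53). Casp8ap2 stood at 0.33 ± 1.01 per kb, and Zfp473, a zinc finger protein of the U7 machinery, was not detected (44, 40, 6 and 13 reads).

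All 10 genes for chaperones and partners of replication-coupled histone deposition were detected (median level per kb 3.38 ± 0.80). Chaf1a, the large subunit of the CAF-1 complex that loads H3.1 and H4, had 4143, 8463, 1541 and 2359 reads. Asf1b had 378, 754, 105 and 164, and Nasp 3161, 5456, 1759 and 2772. On the deposited log2 scale all 3 were highest in library 2, as H2afz was, while Rbbp4, Ipo4 and Cdan1 of the same list were highest in library 1. Of all 12306 detected genes, 2908 were highest in library 2 on that scale. Rbbp7 (6.70 ± 0.22), Ipo4 (6.19 ± 0.19), Rbbp4 (4.32 ± 0.55) and Nasp (3.89 ± 0.54) had the highest levels per kb, and Cdan1 (1.36 ± 0.69) and Mcm2 (2.05 ± 1.42) the lowest.

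Of 17 chaperone and remodeller genes for variants, 16 were detected (median level per kb 2.57 ± 0.44). Hira, which deposits H3.3, had 3218, 3469, 1746 and 3484 reads (4.09 ± 0.28 per kb). Daxx and Atrx, the partners that place H3.3 in repeats, stood at 4.45 ± 0.17 and 2.10 ± 0.64 per kb. The highest levels per kb were those of Znhit1 (7.29 ± 0.24) and Anp32e (5.21 ± 0.26), which act on H2A.Z, Dek (4.8 ± 0.31) and Daxx. Ubn2, a partner of Hira, stood at -0.65 ± 0.94 per kb. Asf1a was not detected (152, 131, 15 and 100 reads). Cenpa, the centromeric H3 variant, which the symbol rule did not take, had 1339, 2990, 718 and 1467 reads (3.17 ± 0.70 per kb) and was highest in library 2.

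General histone chaperones were all detected, 8 of 8, with a median level per kb of 6.93 ± 0.39. Ncl (8.43 ± 0.29), Npm1 (7.53 ± 0.37), Ssrp1 (7.08 ± 0.45) and Set (6.65 ± 0.29) were highest, and Nap1l1 (6.48 ± 0.70) and Nap1l4 (6.55 ± 0.29) lowest of the 6 with an exon length.

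Reads on genes numbered 56265771, 55521915, 40342561 and 56793195 in libraries 1 to 4. All 7 smooth muscle markers were detected, led on the deposited log2 scale by Acta2, Cald1 and Tagln. Their summed level, without division by length, was 13.66, 12.53, 13.82 and 14.27 on that scale. It was lowest in library 2, where the S phase sum, H2afz and H2afx were highest, and its part in the histone values was not tested. Of the markers of other cells, 3 of 5 endothelial, 2 of 6 leukocyte and 4 of 5 adventitial fibroblast genes were detected. The summed level of the 5 fibroblast markers, without division by length, was 8.67, 8.23, 5.77 and 5.37 on the deposited log2 scale, led by Pdgfra (4201, 3149, 666 and 838 reads), Dpt (4133, 3750, 110 and 111) and Dcn (2682, 1181, 255 and 155). The summed level was 5.90, 5.48, 3.76 and 3.72 for the leukocyte markers, led by Csf1r (564, 581, 187 and 296 reads), Lyz2 (927, 441, 68 and 39) and Cd68 (49, 35, 42 and 21), while Ptprc and C1qa had 0 reads in library 3 and Emr1 had 0 in libraries 3 and 4. It was 5.45, 4.83, 5.39 and 3.93 for the endothelial markers, led by Tie1 (509, 342, 287 and 142 reads), Pecam1 (326, 235, 312 and 81) and Vwf (200, 149, 273 and 198). The fibroblast and leukocyte sums were thus higher in libraries 1 and 2. On the deposited scale 7 of the 10 detected cluster genes were also higher there, as were 51.8% of all detected genes. With size factors these were 4 of 10 and 27.0%. The part of these other cells in the histone values was not tested. The 13 named RNAs without a poly(A) tail that were looked for had no rows in the table used here, and of 7 rows with the prefix Mir none was detected. Mir17hg among them is a long host transcript, and the other 6 had at most 18 reads in a library. Carry-over of RNA without a tail could therefore not be measured.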

How the data were processed

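The table deposited by the authors holds 1 log2 value per gene and library; the submitters' processing notes list Trim Galore, cutadapt, TopHat and GRCm38. For the counting tool, its annotation and its use of strand, the entry is "not given in the sources used here". Libraries were made with TruSeq Stranded mRNA from 4 ug of total RNA with integrity numbers of 7.8 to 9, per the labels' protocols. Judged by the values, a log2 value deposited by the authors stands for whole reads times a library constant, with genes without reads at 0.9 read; 99.7 to 99.8% of recovered reads were within 0.05 of a whole number. Reads in the text are these recovered reads.

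Exon lengths were unions of GENCODE M21 exons, found for 87.0% of rows and 80 of 81 histone genes; for H2afb1 the deposited span was used. Stem-loops, AATAAA and shared stretches of 50 bases came from GENCODE M21 transcripts. Means and SDs are over 4 libraries. Paralogue contrasts used the exact two-sided sign-flip test over 16 arrangements with Benjamini-Hochberg adjustment over 6 contrasts, which was tested on simulated data. Alternatives varied the length, scaling, detection, floor and overlap rules and left out each library. Named genes were all detected histone genes, all replacement variants, cluster genes with a mean of at least 10 reads and the 3 next by reads, and in each pathway list the 4 highest and 2 lowest, 10 further chaperone and regulator genes, and the 3 highest genes of the S phase, smooth muscle, endothelial, leukocyte and fibroblast lists on the deposited scale. Ptprc, C1qa and Emr1 were named after their values, for their counts of 0, and Sycp3 for its reads. A gene that this rule names is not reported here. Histone genes and lists were chosen with earlier results of these data known. Python 3.11.15, numpy 2.4.6, pandas 2.3.3 and scipy 1.17.1 were used.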

Additional observations from a re-analysis of the deposited data

Results flagged for a closer look

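Of 62 values tested for a library far from the other 3, including 35 named histone genes, 3 stood apart, and chance gives about 1 in 20. H2afx was at 6.47 in library 2 on the deposited log2 scale and at 5.56 to 5.69 in the other libraries. The median level per kb of the replacement variants was 5.61 in library 2 and 5.02 to 5.09 in the others. The difference of Hist1h1c and Hist1h1e was 8.16 in library 4, where Hist1h1e had 20 reads, and 5.24 to 5.57 in the others, on the log2 per kb scale.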

How the results depend on the processing

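Groups could not be paired, since all libraries belong to 1 group; the paralogue contrasts were paired within libraries. Of the values recomputed under alternatives, 128 stayed within the spread between libraries or on the same side, 22 moved beyond it and 5 changed sign. Counting detection in at least 1 library gave 23 cluster genes. The median level per kb of the cluster genes was -1.94 as a mean over genes, 2.47 over detected genes, -1.82 with genes without reads set at 3 reads, -3.82 with no division by length and -3.69 as CPM. For the replacement variants it was 3.20 as a mean, 5.59 over detected genes, 3.70 by genomic span, 5.97 with no division by length and 4.26 as CPM. Their difference was 5.14 as a mean, 3.12 over detected genes, 7.01 at 3 reads, 6.67 by span and 9.80 with no division by length; the variants were higher in each. Without overlapping genes the variants' read share was 0.0751% and their H2A share 99.0%; by span the H2A share was 94.6% and the H3 share 93.4%, and the H3 share was 98.9% with no division by length. The number of histone genes with a high SD was 1 at an SD above 1 and 45 with all genes that had reads in at least 1 library. H2afz minus H2afv was 1.79 by span, and H2afy minus H2afy2 was 0.45 with the longest transcript, 0.87 by span and 1.33 with no division by length. Leaving out 1 library at a time gave 10 to 12 detected cluster genes, 10 variants in each case, medians per kb of -3.06 to -2.48 and 5.05 to 5.24, a difference of 7.73 to 8.28, 7 to 11 histone genes with an SD above 0.5, and read shares of 0.0114 to 0.0147% for cluster genes and 0.0850 to 0.0911% for variants. The cluster genes' low counts, at most 5 reads in every library for 24 genes, set the floor on what could be seen at this depth.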
